A study of Mus musculus with 4 samples.

Results

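The 10 mouse genes described here belong to the MHC class I antigen presentation pathway and were followed across the cell classes and treatments of a single-cell RNA-seq series from the dentate gyrus. The set held 10 of the 31557 gene symbols in the count table. It was listed by symbol and covers the class I chains B2m, H2-D1, H2-K1 and H2-T23, the peptide transporter genes Tap1 and Tap2, the loading factor Tapbp, the immunoproteasome subunits Psmb8 and Psmb9, and the transactivator Nlrc5. The set was chosen by knowledge of the pathway after a difference in the B2m counts between treatments had been seen in oligodendrocyte-like cells, so the comparison of treatments in those cells is described here and supports nothing. All 10 symbols had counts in the kept wells.

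The series asked what a block of the activity-induced microRNA miR-132 does to the adult neurogenic niche, in a project on the repressor NACC2 and Alzheimer's disease. Cells positive for GFP from a nestin-GFP reporter were sorted singly into 96 wells per mouse from both dentate gyri of 8 male mice and made into Smart-seq2 libraries. In 4 mice, miR-132 antagomir, an LNA (locked nucleic acid) oligonucleotide carrying cholesterol, had been infused into the cerebral ventricle at 2 months of age (2 µl at 0.33 nmol/ml) with analysis at 3 months. The control group of 4 mice was injected with a scrambled oligonucleotide at a dose and ages not given in the sources used here. All mice carried the reporter and all were injected, the label of the sort is the reporter and not a cell type, and mature miR-132 was not measured.

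Class I molecules show peptides made inside the cell to CD8 T cells. The proteasome, with the subunits Psmb8 and Psmb9 in its immune form, cuts proteins into peptides, Tap1 and Tap2 together pump them into the endoplasmic reticulum, and tapasin (Tapbp) helps to load them onto a heavy chain paired with B2m. H2-D1 and H2-K1 encode the classical heavy chains, which need B2m to reach the cell surface in a stable form. H2-T23 encodes the heavy chain of Qa-1, a non-classical molecule read by receptors on natural killer and T cells. Nlrc5 switches the pathway on through a promoter module bound by RFX, CREB or ATF and NF-Y proteins, and interferons and NF-kappaB act through sites further upstream. In the healthy brain the pathway is known to be strong in vessel endothelium and weak in most neurons.

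B2m lies at chr2:122147686-122153083 on the plus strand and Nlrc5 at chr8:94434356-94527272 on the plus strand (GRCm38, GENCODE M21). The other 8 genes lie in the major histocompatibility complex on chromosome 17. H2-K1 is at chr17:33996017-34000347 (minus strand), Tapbp at chr17:33915899-33929292 (plus), Psmb9 at chr17:34181987-34187764 (minus), Tap1 at chr17:34187553-34197225 (plus), Psmb8 at chr17:34197721-34201454 (plus), Tap2 at chr17:34203527-34216321 (plus), H2-D1 at chr17:35262730-35267499 (plus) and H2-T23 at chr17:36029773-36032855 (minus). Tap1 and Psmb9 run in opposite directions and share 212 exonic bases. Tap2, Psmb8, Tapbp and Nlrc5 each overlap another annotated gene on the opposite strand, and Tapbp also overlaps Zbtb22 on its own strand. Reads were counted with a strand setting not given in the sources used here, so those from such overlaps cannot be told apart. H2-D1, H2-K1 and H2-T23 are close copies of one another and of other heavy chain genes, and how the counting split reads between copies is uncertain.

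The promoters of the chains are shown because the pathway's regulators act there. Of the 10 genes, 8 had an entry in the RefSeq promoter table (GRCm38.p6), and 4 motifs were searched on both strands in the 250 bases before the RefSeq start. They were the core of the interferon-stimulated response element (GAAANNGAAA), the core of the X2 box bound by CREB or ATF proteins (TGACG), the Y box bound by NF-Y (CCAAT) and the NF-kappaB consensus. The stretches that hold the matches are printed for the 4 chain genes, 5′ to 3′ on the gene's own strand, with the matches in capitals. They are chr2:122147538-122147648 (plus) for B2m, chr17:35262913-35263055 (plus) for H2-D1, chr17:34000349-34000468 (minus) for H2-K1 and chr17:36032739-36032835 (minus) for H2-T23.
B2m: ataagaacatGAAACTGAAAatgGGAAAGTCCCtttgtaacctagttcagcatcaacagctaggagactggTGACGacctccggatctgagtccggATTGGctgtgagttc
H2-D1: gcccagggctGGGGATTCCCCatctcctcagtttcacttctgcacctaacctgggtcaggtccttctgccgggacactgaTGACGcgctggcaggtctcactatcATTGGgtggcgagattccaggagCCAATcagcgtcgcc
H2-K1: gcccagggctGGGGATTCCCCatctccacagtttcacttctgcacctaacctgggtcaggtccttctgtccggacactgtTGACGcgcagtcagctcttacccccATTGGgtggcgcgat
H2-T23: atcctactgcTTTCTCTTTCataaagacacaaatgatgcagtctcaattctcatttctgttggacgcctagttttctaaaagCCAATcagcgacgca
The order of motifs in B2m was interferon element, NF-kappaB consensus, X2 core and Y box. H2-D1 and H2-K1 carried the NF-kappaB consensus, the X2 core and the Y box in the same order and shared an identical run of 47 bases around the NF-kappaB consensus. H2-T23 held the interferon element and the Y box. The stretches of H2-D1 and H2-T23 lie inside the gene bounds of GENCODE.

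The Y box was in 7 of the 8 matched promoters, against 34.5% of 27025 promoters in the table, and the X2 core in 5 of 8, against 17.9%. The NF-kappaB consensus was in 3 of 8, against 7.01%, and the interferon element in 2 of 8, against 3.04%. Psmb8 held none of these letters. Tap1 and Psmb9 start 226 bases apart in RefSeq and face away from each other, so their searched windows share bases and matches. These are letter matches to fixed patterns, and no binding was measured. Looser forms of the elements were not searched, so a promoter without a match, such as H2-D1 or H2-K1 for the interferon element, may still hold one.

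The microRNA itself is shown because the treatment is aimed at it, with its seed (bases 2 to 8) in capitals. It lies at chr11:75173723-75173744 on the plus strand (RefSeq, GRCm38.p6).
mmu-miR-132-3p: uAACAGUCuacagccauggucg
The matching sites, GACTGTT or ACTGTTA, were in the longest 3′ UTR of 0 of the 10 genes. They were in 17.8% of the 21020 genes with a 3′ UTR in GENCODE M21.

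Of 768 wells, 716 had 500 to 6000 detected genes and were used. Antagomir mice gave 353 and scrambled mice 363 of them, with a median of 650777 counts and 2778.5 detected genes. Sums per mouse ran from 43996495 to 69191485 counts. Counts are reads and not molecules. The mouse was the replicate, with 4 mice per treatment, and each pairing of sort day and pool held 1 mouse of each treatment. Sort day is the name given here to the FACS label of the wells, and pool to the L5 or L6 part of their Project label. Neither header names a day or a sequencing pool. Cells fell into 5 classes large enough to compare, named from marker genes after a clustering that left out the 10 genes and the gene lists used below. They were 300 oligodendrocyte-like cells, 203 cells like radial glia-like stem cells (RGL) or astrocytes, 87 endothelial-like, 84 mural-like (pericytes and vascular smooth muscle) and 25 neuroblast-like cells. A call per cell from markers alone gave the same name to 298, 194, 86, 83 and 25 of them. Mouse 7 (scrambled) had 3 endothelial-like cells, and 3 wells held at least 3 microglial markers at 10 counts or more, 2 of them in the RGL or astrocyte-like class (mice 4 and 7) and 1 in the oligodendrocyte-like class (mouse 7).

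Among the 5 classes compared, B2m was highest in endothelial-like cells, intermediate in mural-like and RGL or astrocyte-like cells, lower in oligodendrocyte-like cells and near absent from neuroblast-like cells. Summed over the cells of a mouse, its level, scaled to the total counts of those cells (CPM), averaged 1869 ± 385 CPM in endothelial-like, 548 ± 332 in mural-like, 216 ± 87.4 in RGL or astrocyte-like and 106 ± 89.4 CPM in oligodendrocyte-like cells (SD, n = 8 mice each). In neuroblast-like cells it averaged 0.203 ± 0.454 CPM over the 5 mice with at least 3 such cells. The lowest endothelial-like level of any mouse, 1237 CPM, was above every mouse's level in the other classes compared, the highest of which was 1021 CPM in mural-like cells.

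The classical heavy chains followed B2m in endothelial-like cells and departed from it elsewhere. H2-D1 averaged 1436 ± 386 CPM in endothelial-like, 459 ± 261 in mural-like, 112 ± 177 in oligodendrocyte-like and 90.3 ± 67.7 CPM in RGL or astrocyte-like cells, with SD over 8 mice. In neuroblast-like cells H2-D1 stood at 253 ± 269 CPM (SD, n = 5). H2-K1 averaged 1031 ± 457 CPM in endothelial-like cells, and its mural-like level of 191 ± 126 CPM and RGL or astrocyte-like level of 195 ± 101 CPM lay within each other's spread (SD, n = 8). The oligodendrocyte-like level of H2-K1 was 52.5 ± 34.4 CPM (SD, n = 8) and its neuroblast-like level 0.102 ± 0.227 CPM (SD, n = 5). For H2-D1, the oligodendrocyte-like and RGL or astrocyte-like levels likewise did not differ beyond their spread.

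H2-T23 was highest in endothelial-like cells, at 407 ± 377 CPM there, against 18.6 ± 30.9 CPM in mural-like, 6.56 ± 12.2 in RGL or astrocyte-like and 0.590 ± 1.64 CPM in oligodendrocyte-like cells (SD, n = 8), and 69.3 ± 155 CPM in neuroblast-like cells, where 4 of 5 mice were at 0. Its spread between mice was wide. In endothelial-like cells the antagomir mice 2, 4, 6 and 8 had 386, 102, 363 and 2.28 CPM, and the scrambled mice 1, 3, 5 and 7 had 451, 165, 576 and 1210.0 CPM. The lowest was thus an antagomir mouse and the highest a scrambled mouse with only 3 such cells, and the treatments overlapped.

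Of the 5 members that supply and load peptide, Tapbp was the most abundant. It averaged 429 ± 306 CPM in endothelial-like, 204 ± 173 in mural-like, 74.6 ± 34.5 in RGL or astrocyte-like and 37.8 ± 33.4 CPM in oligodendrocyte-like cells (SD, n = 8). Tap2, the transporter's second subunit, had 92.4 ± 81.5 CPM in mural-like and 85.6 ± 128 CPM in endothelial-like cells, against 22 CPM in RGL or astrocyte-like and 4.65 CPM in oligodendrocyte-like cells. Tap1 was lower, at 40.7 ± 57.1 CPM in mural-like and 36.1 ± 55.8 CPM in endothelial-like cells, and was at 0 in 3 of the 8 endothelial-like sums (mice 3, 6 and 8).

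The immunoproteasome subunits were likewise highest in endothelial-like cells. Psmb9 averaged 109 ± 152 CPM and Psmb8 98.6 ± 61.9 CPM there, against 24.5 and 2.32 CPM in mural-like and 6.28 and 11.7 CPM in RGL or astrocyte-like cells. Both were under 1 CPM in oligodendrocyte-like cells. Nlrc5, the transactivator, was the lowest of the set in endothelial-like cells, at 24.4 ± 33.8 CPM, and was at 0 in the mural-like cells of every mouse, with reads in 0 of 84 cells, which allows a share of cells with a read of up to 3.57% and does not limit the share that expresses the gene. Per length of transcript in endothelial-like cells, B2m had 2173 ± 447 RPKM (CPM per kilobase of exon), H2-D1 557 ± 150, H2-K1 351 ± 155, H2-T23 141 ± 130, Tapbp 118 ± 84.4, Psmb9 29.7, Psmb8 29.2, Tap2 22.6, Tap1 6.59 and Nlrc5 2.87 RPKM (n = 8 mice). On that scale the light chain was the highest of the 10.

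**Figure D1:**
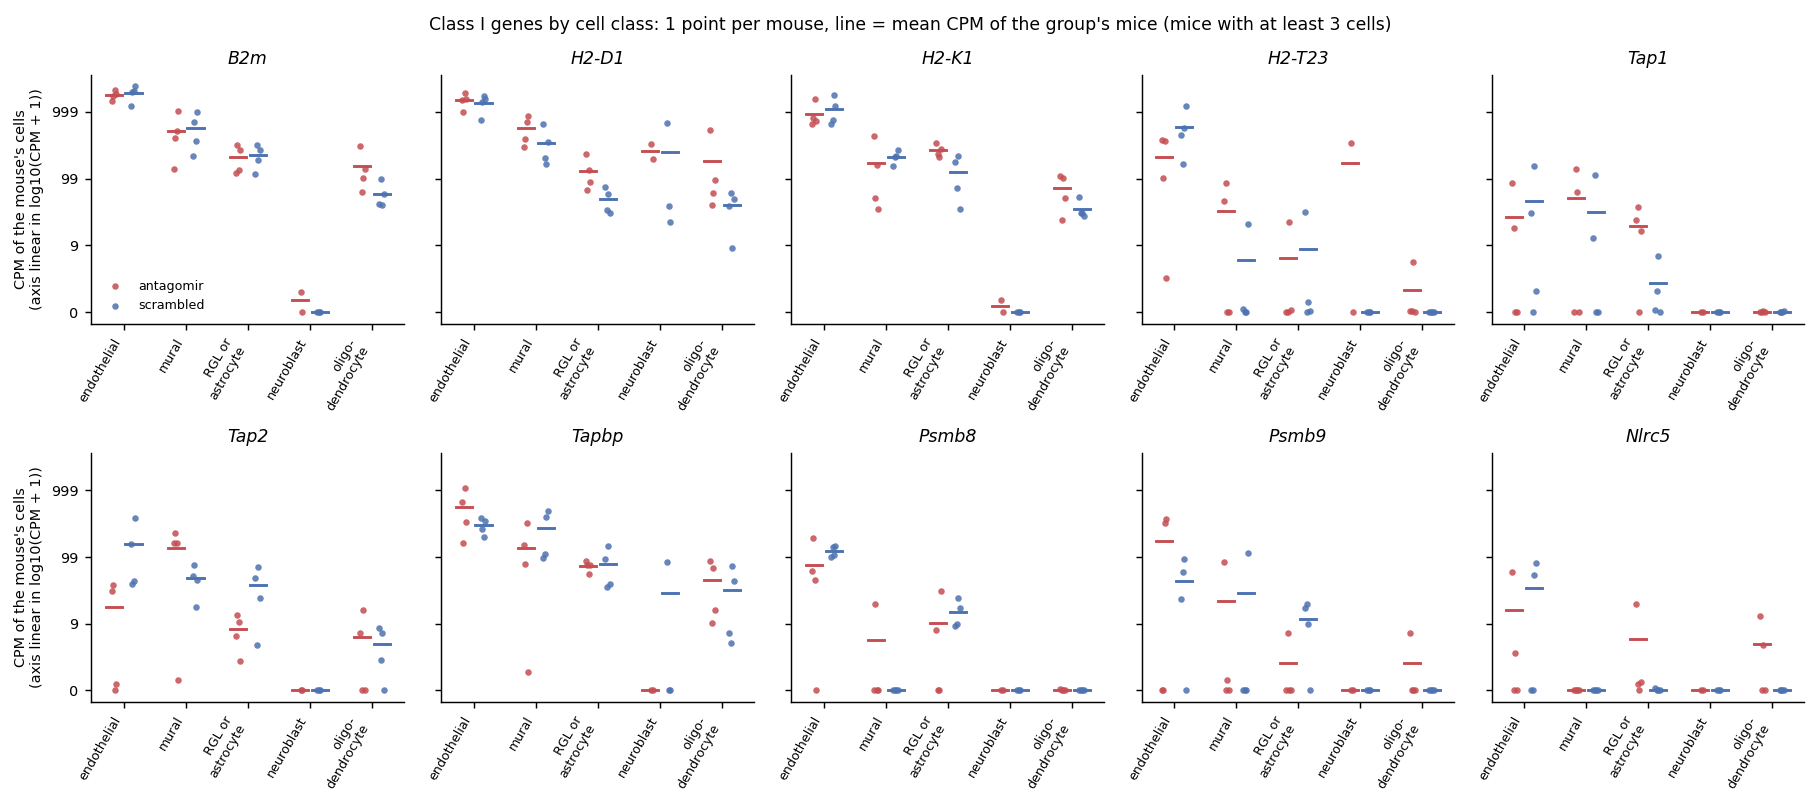
Level of each of the 10 genes (CPM of counts summed per mouse and class, log axis) in 5 cell classes, with one point per mouse. The 8 endothelial-like points of B2m run from 1237 to 2463 CPM, above every point of the other classes shown.

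The share of cells with any read gave the same order for B2m. It was found in 98.9% of endothelial-like cells (Wilson 95% interval 93.8% to 99.8%), 81.0% of mural-like (71.3% to 87.9%), 63.1% of RGL or astrocyte-like (56.2% to 69.4%) and 48.0% of oligodendrocyte-like cells (42.4% to 53.6%). Intervals cover counting error only. H2-D1 was found in 83.9% of endothelial-like, 54.8% of mural-like, 23.7% of oligodendrocyte-like and 20.7% of RGL or astrocyte-like cells. H2-T23 was found in 41.4% of endothelial-like cells and at most 7.14% of any other of the 5 classes, and Nlrc5 in 5.75% of endothelial-like cells.

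Stray reads of other cells' genes set a floor for such shares. Cldn5, an endothelial gene, was found in 4.67% of oligodendrocyte-like cells at a median depth of 831582 counts, against 98.9% of endothelial-like cells at 565180 counts, and Mbp, a myelin gene, in 29.9% of endothelial-like and 99.7% of oligodendrocyte-like cells. At 10 counts or more both stray shares were 0%. Acta2, a smooth muscle gene, was found in 7.67% of oligodendrocyte-like and 23.8% of mural-like cells, and at 10 counts or more in 0.333% and 19.0% of them. After every cell had been thinned to 200000 counts, B2m was found in 98.7% of endothelial-like, 80.3% of mural-like, 62.6% of RGL or astrocyte-like and 45.4% of oligodendrocyte-like cells. Thinning left out 9, 8, 21 and 5 shallower cells of those classes.

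Differences between classes were tested within mice, on log2(CPM + 1) with an exact two-sided sign-flip test adjusted over all genes of a pair of classes. Over the 10 pairs of classes, 6 of the 92 comparisons of a member passed an adjusted p of 0.05. The 5 genes B2m, H2-D1, H2-K1, H2-T23 and Tapbp were higher in endothelial-like than in oligodendrocyte-like cells, where 4.14% of 13350 genes passed as higher. The log2 differences were 4.44 ± 1.08 for B2m, 4.56 ± 1.65 for H2-D1, 4.40 ± 1.10 for H2-K1, 7.31 ± 2.66 for H2-T23 and 3.89 ± 1.44 for Tapbp (SD over 8 mice). Each was higher in 8 of 8 mice, with an exact p of 0.0078, the smallest that 8 mice can give, and an adjusted p of 0.0459. H2-T23 was near 0 in oligodendrocyte-like cells, so the size of its difference depends on the added 1 CPM. A gene was tested in a pair at a mean of at least 1 CPM in either class. H2-T23, at 0.590 CPM in oligodendrocyte-like cells, met this through endothelial-like cells alone, so its call is a description.

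H2-K1 was the other gene that passed. It was higher in RGL or astrocyte-like than in oligodendrocyte-like cells by 1.83 ± 0.98 on the log2 scale (SD over 8 mice, higher in 8 of 8, exact p = 0.0078, adjusted p = 0.0389), where 11.4% of 14653 genes passed as higher. Without the 3 wells that held microglial markers the difference was 1.63, higher in 7 of 8 mice, and the adjusted p of 0.0817 missed the threshold. Leaving out any 1 mouse ended all 6 calls, because 7 mice cannot go below an exact p of 0.0156.

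In the other 8 pairs of classes the sign-flip test called 0 members and 0% of all genes. In those pairs 17 comparisons of a member reached an unadjusted exact p of 0.05, all 17 in pairs with 8 mice. They include B2m, H2-D1, H2-K1, H2-T23 and Tapbp in endothelial-like against RGL or astrocyte-like cells, each higher in 8 of 8 mice with an adjusted p of 0.0521. Pairs with neuroblast-like cells rest on 5 mice and cannot go below 0.0625.

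A model across all genes, edgeR's quasi-likelihood test with the mouse as a block, was added after the data had been seen and was not held to that limit. It passed 31 comparisons of a member at an adjusted p of 0.05, of which 21 passed in every fit that left out 1 mouse. A member near 0 in one class of a pair passed the filter through the other class, so the counts of members are descriptions. Against oligodendrocyte-like cells, endothelial-like cells had 5 of 6 fitted members higher (5.37% of all fitted genes were), mural-like cells 2 of 5 (5.57%) and RGL or astrocyte-like cells 1 of 5 (13.8%). The 5 were the same genes as in the sign-flip test, with B2m at a log2 difference of 4.05 (SE 0.45). The 2 in mural-like cells were H2-D1, by 2.53 (SE 0.64), and B2m, by 2.18 (SE 0.57), and the 1 in RGL or astrocyte-like cells was H2-K1, by 1.64 (SE 0.35, adjusted p = 0.0056 in edgeR). Summed endothelial markers in mural-like cells were 586 to 2274 CPM in antagomir and 458 to 1589 CPM in scrambled mice, 73.1% of it Esam, with Cdh5 at 0 among the 12, and their part in the mural-like levels was not tested.

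Among the vascular and glial classes, endothelial-like cells had 5 of 8 fitted members higher than mural-like cells (4.31% of all genes were) and 5 of 9 higher than RGL or astrocyte-like cells (4.62%). B2m was 1.98 (SE 0.43) and H2-K1 2.65 (SE 0.58) above the mural-like level on the log2 scale, and both passed without each mouse in turn. The calls of H2-D1 (lost without mouse 2, 3, 5 or 6), H2-T23 (without 1, 3, 5 or 6) and Psmb8 (without 4) against mural-like cells depended on single mice. Against RGL or astrocyte-like cells, H2-D1 was 3.78 (SE 0.47), B2m 2.73 (SE 0.39) and H2-K1 2.09 (SE 0.51) higher, and Tapbp, at 1.94 (SE 0.62), lost its call without mouse 1, 2, 3, 6 or 8. Mural-like cells had 1 of 6 members higher than RGL or astrocyte-like cells (4.28% of all genes), which was H2-D1, by 2.05 (SE 0.51).

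Neuroblast-like cells had the lowest B2m and H2-K1 of the 5 classes. In endothelial-like against neuroblast-like cells, where 7.06% of all genes were called higher, the calls were B2m, H2-D1, H2-K1, H2-T23, Tapbp and Psmb9. Psmb9 was at 0 in every neuroblast-like sum and B2m, H2-K1, H2-T23 and Tapbp were at 0 in 4 of 5, so these could pass the filter on low counts through the endothelial-like cells alone, and the other 4 members were not fitted. B2m and H2-K1 were also higher in mural-like (5.22% of all genes) and in RGL or astrocyte-like cells (4.83%), each time with 4 members fitted. In neuroblast-like against oligodendrocyte-like cells, the same 2 of 4 genes were lower (6.68% of all genes were). Without single mice, the endothelial-like calls of Psmb9 (mouse 6 or 8), H2-D1 (3 or 8) and H2-T23 (any of 5) were lost, as were the mural-like call of H2-K1 (1, 3, 5 or 6) and the neuroblast-like against oligodendrocyte-like calls of H2-K1 (any of 5) and B2m (3, 5, 6 or 8). No fold is given for B2m and H2-K1 here, since 4 of the 5 neuroblast-like sums of each were at 0.

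H2-D1 reads were found in neuroblast-like cells with no B2m reads. Of 25 such cells, 8 had H2-D1 reads (32%, Wilson 95% interval 17.2% to 51.6%) and 1 had B2m reads (4%, 0.710% to 19.5%), and these were different cells. The mouse sums of H2-D1 were 327 and 198 CPM in antagomir mice 6 and 8 and 679, 38.5 and 21.8 CPM in scrambled mice 1, 3 and 5, so both treatments held such cells. Single cells reached 923 CPM (mouse 6), 571 CPM (mouse 8) and 2538 CPM (mouse 1), and the only cell with B2m, from mouse 6, had 6.31 CPM. The B2m share is no higher than the stray share of Cldn5 given above. Thinned to 200000 counts, 26.1% of 23 cells had H2-D1 and 4.35% had B2m. In the other classes H2-D1 came with B2m in most cells, as B2m was also present in 72 of 73 endothelial-like, 39 of 46 mural-like, 34 of 42 RGL or astrocyte-like and 42 of 71 oligodendrocyte-like cells with H2-D1. Over all cells of those classes B2m was present in 86 of 87, 68 of 84, 128 of 203 and 144 of 300 in that order. The counts thus partly restate how common B2m was, and with 1 B2m cell a lack of overlap in neuroblast-like cells says little. Cd1d1, a class I-like chain that also pairs with B2m, had 196 ± 236 CPM in neuroblast-like cells (SD, n = 5), and the near copies of the heavy chains make the source of single H2-D1 reads uncertain.

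**Figure D2:**
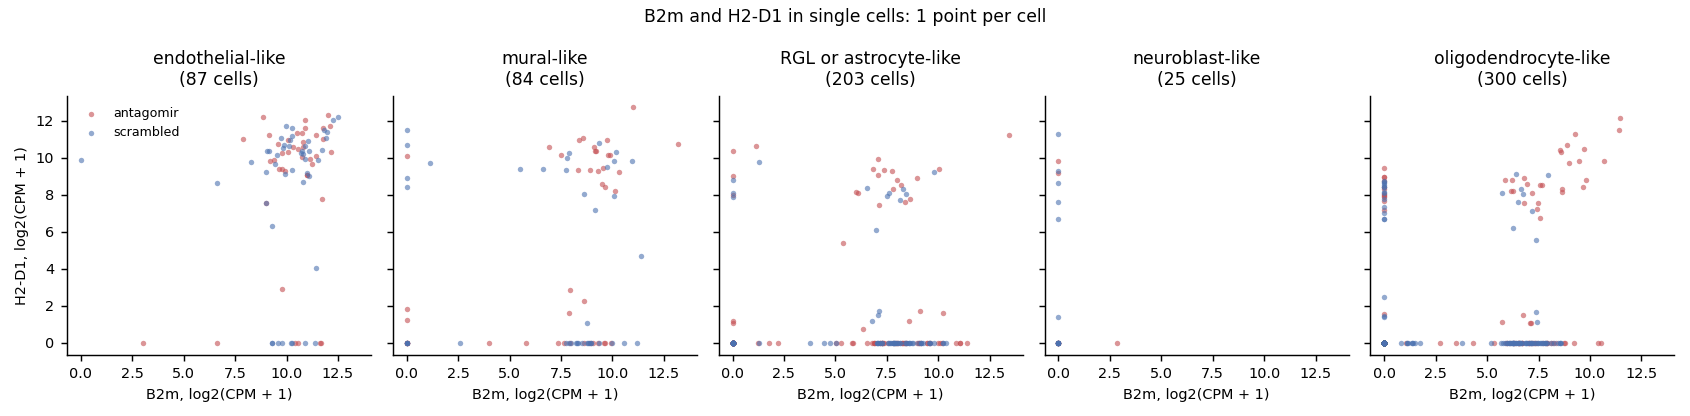
B2m against H2-D1 in single cells (CPM on log axes), by cell class and treatment. In the neuroblast-like cells, of which 1 of 25 holds B2m, the 8 with H2-D1 lie at 0 B2m. Of the 73 endothelial-like cells with H2-D1, 72 also hold B2m, as do 86 of all 87.

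Between treatments, no member passed the test across all genes in any fit. The log2 difference of H2-D1 was positive in both glial classes, as was that of B2m in oligodendrocyte-like cells. In oligodendrocyte-like cells B2m had 310, 61.4, 99.8 and 137 CPM in antagomir mice 2, 4, 6 and 8, against 40.2, 99.3, 38.9 and 57.4 CPM in scrambled mice 1, 3, 5 and 7. The groups overlapped, with mouse 2 the highest, and the log2 difference was 1.38 (SE 0.50, 95% interval 0.28 to 2.48), given with no test. The share of cells with B2m reads was 47.9% ± 20.7 in antagomir mice and 46.7% ± 2.59 in scrambled mice (SD, n = 4).

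H2-D1 had 545, 39.0, 61.1 and 93.6 CPM in the oligodendrocyte-like cells of antagomir mice 2, 4, 6 and 8, against 38.1, 60.3, 8.18 and 48.7 CPM in scrambled mice 1, 3, 5 and 7. The groups overlapped, and mouse 2 stood far above the rest. The log2 difference was 2.27 (SE 0.86, 95% interval 0.36 to 4.18), likewise given with no test. Neither interval is read as a test or as support, since the set was prompted in these cells. For both genes the interval also spanned 0 with sort day and pool as a replicate block and without mouse 1, 2 or 5. Without mouse 2 the difference of H2-D1 was 0.72, and that of B2m was 0.74. Within pool L5, which held mouse 2, the differences were 3.66 for H2-D1 and 2.33 for B2m, and within pool L6 they were 0.30 and 0.35.

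The high values came from few cells. Of the 10 oligodendrocyte-like cells highest in H2-D1 (836 to 4638 CPM, chosen after their values were seen, the next at 709 CPM), 9 were from mouse 2 and 1 from mouse 8. They held 13 or 14 of 14 oligodendrocyte markers at 10 counts or more, at most 1 of 12 endothelial and at most 1 of 15 microglial markers. Without its 9 cells, the H2-D1 level of mouse 2 was 116 CPM over the remaining 30 of 39 cells. Of the 10 cells highest in B2m, 5 were from mouse 2, 3 from mouse 8, 1 from mouse 6 and 1 from mouse 4, all antagomir mice, and without its 5 the B2m level of mouse 2 was 120 CPM.

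Of the 10 cells high in H2-D1, 6 lay in 1 of the 3 oligodendrocyte-like clusters, a cluster of 40 cells led by the immediate early genes Egr2, Egr1 and Arc and the heat shock gene Dnajb1. Mouse 2 gave 17 of those 40 cells, with an H2-D1 level of 727 CPM, against 0 to 101 CPM in the other 5 mice represented. The levels of those 5 mice rest on 2 to 6 cells each, and the 0 was mouse 8 with 2 cells. Summed microglial markers in oligodendrocyte-like cells were 26.5 to 59.5 CPM in antagomir and 19.9 to 74.2 CPM in scrambled mice, with Pf4 at 0 among the 15. Summed endothelial markers were 1.01 to 34.1 CPM in antagomir and 15.7 to 57.9 CPM in scrambled mice, 97.5% of it Kdr, with none of 12 at 0. The part of cluster, pool or library in the high values of mouse 2 was not tested.

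In RGL or astrocyte-like cells H2-D1 had 236, 66.2, 135 and 89.2 CPM in antagomir mice 2, 4, 6 and 8, against 75.2, 32.9, 58.6 and 29.2 CPM in scrambled mice 1, 3, 5 and 7. Only mouse 1 of the scrambled group reached into the antagomir range. The log2 difference was 1.38 (SE 0.50, 95% interval 0.27 to 2.49, unadjusted p = 0.0189, adjusted p = 1.00 in edgeR), and within pools it was 1.39 in L5 and 1.37 in L6. The unadjusted p in edgeR was 0.0083 with the replicate block, 0.101 without mouse 2 and 0.0507 without mouse 7. Summed mural markers in these cells, 83.4% of it Pdgfrb and none of 12 at 0, were 20.5, 105, 36.0 and 38.7 CPM in antagomir mice 2, 4, 6 and 8, against 80.9, 129, 204 and 96.3 CPM in scrambled mice 1, 3, 5 and 7, and their part in the result was not tested. H2-K1 had 343, 231, 209 and 274 CPM in antagomir mice 2, 4, 6 and 8, against 177, 70.6, 219 and 34.3 CPM in scrambled mice 1, 3, 5 and 7, a log2 difference of 1.04 (SE 0.51, unadjusted p = 0.0687 in edgeR). Only mouse 5 of the scrambled group lay among the antagomir mice for H2-K1, whose difference was 0.38 within L5 and 2.33 within L6.

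In RGL or astrocyte-like cells the B2m levels divided by pool. Mice 2, 6, 1 and 5 of pool L5 had 120.1, 133, 115 and 189 CPM, and mice 4, 8, 3 and 7 of pool L6 had 316, 268, 323 and 266 CPM. The pools did not overlap, which is a description, as the share of all genes that divide by pool was not computed. Antagomir mice averaged 209 ± 97.5 CPM and scrambled mice 223 ± 90.5 CPM (SD, n = 4). The class joined 4 clusters that drew unevenly on the pools. Pool L6 gave 73.8%, 73.0%, 48.3% and 34.3% of their cells, and their summed B2m levels were 327, 303, 162 and 261 CPM in that order. Of the 10 cells highest in B2m, 6 were from mouse 4, whose level without them was 153 CPM. The part of clusters and single cells in the division by pool was not tested. The cell highest in B2m, at 11023 CPM, was the well of mouse 4 with 9 microglial markers. Summed microglial markers in this class were 31.0 to 338 CPM in antagomir and 24.4 to 279 CPM in scrambled mice, with Aif1 at 0.

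**Figure D3:**
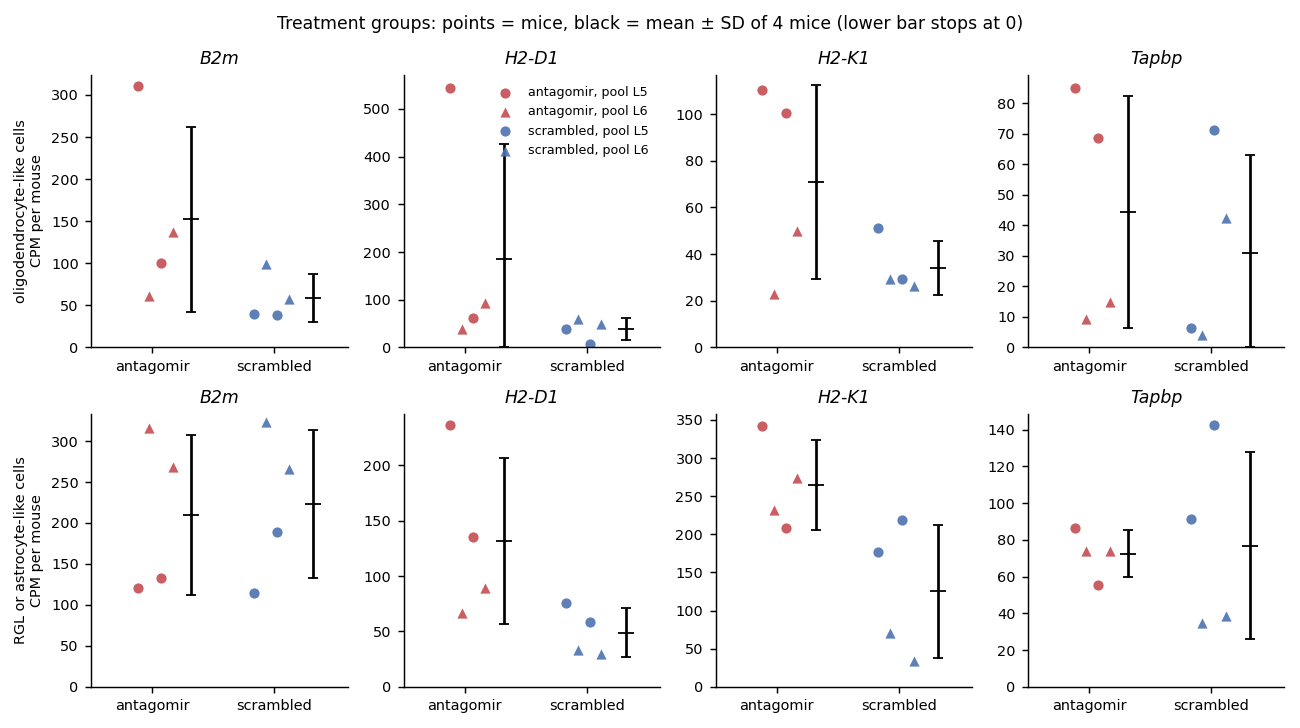
Level per mouse (CPM, linear axis) of B2m, H2-D1, H2-K1 and Tapbp in both glial classes, with the mean and SD. Antagomir mice are on the left and scrambled mice on the right, and marker shape gives the pool. In oligodendrocyte-like cells, antagomir mouse 2 lies at 545 CPM for H2-D1 and 310 CPM for B2m, and no panel separates the treatments.

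Over the members, edgeR's test adjusted over all genes called 0 of 10 in all cells, 0 of 10 in endothelial-like, 0 of 6 fitted in mural-like and 0 of 8 in RGL or astrocyte-like cells. It called 0% of all genes in each of these comparisons and in oligodendrocyte-like cells. At an unadjusted p of 0.05 the members higher in antagomir mice were 1 of 8 in RGL or astrocyte-like cells (H2-D1, beside 0.845% of all genes). They were 0 in all cells (0.958%), endothelial-like (1.08%) and mural-like cells (0.383%). In oligodendrocyte-like cells, where the set was prompted, 0.854% of all genes were higher at that p, and nothing is read from the members there. DESeq2 called 0 members as well, while calling 0.0647% of genes in all cells, 0.855% in endothelial-like, 0.324% in mural-like, 0.0704% in RGL or astrocyte-like and 0.121% in oligodendrocyte-like cells.

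In endothelial-like cells, where the pathway was strongest, the treatments overlapped in the classical chains. B2m had 1476.5, 1750.3, 2110.1 and 1861 CPM in antagomir mice 2, 4, 6 and 8, against 1237, 1962, 2090.0 and 2463 CPM in scrambled mice 1, 3, 5 and 7. H2-D1 had 1527, 999.5, 1957 and 1543 CPM in antagomir mice, against 751, 1433, 1707 and 1573 CPM in scrambled mice. The groups overlapped in both genes, and the 95% intervals of the log2 difference, which drop mouse 7 with its 3 cells, were -0.70 to 0.59 for B2m and -0.68 to 0.99 for H2-D1. Differences within those intervals were not detectable with 4 mice against 3.

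A lack of overlap between treatments is a description here, as its share over all genes was not computed. Tap2 in endothelial-like cells was the only member of any class whose values did not overlap. It had 30.0, 37.7, 0 and 0.254 CPM in antagomir mice 2, 4, 6 and 8, against 156, 38.6, 43.0 and 379 CPM in scrambled mice 1, 3, 5 and 7. Mouse 7 rests on 3 cells, the nearest values of the groups were 37.7 and 38.6 CPM, and the unadjusted p in edgeR, without mouse 7, was 0.314. In mural-like cells the order was not kept, since Tap2 had 159, 229.7, 162 and 0.439 CPM in antagomir mice 2, 4, 6 and 8, against 51.7, 75.5, 16.8 and 44.4 CPM in scrambled mice 1, 3, 5 and 7.

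Counts of members by sign are descriptions. Nothing is read from them in oligodendrocyte-like cells, which prompted the set, or in all cells, which include that class. In all cells 7 of the 10 members had a positive log2 difference, with a median of 0.46 beside 0.00 over all genes. In oligodendrocyte-like cells 5 of 5 did, with a median of 1.03, and in RGL or astrocyte-like cells 3 of 8, with a median of -0.11, in endothelial-like cells 3 of 10, with a median of -0.18, and in mural-like cells 3 of 6, with a median of 0.31. The medians over all genes in those classes lay between -0.07 and 0.00. These counts differed by method, since limma on the mean over cells of log2(CPM + 1) gave 5 of 10 in all cells (median 0.06), 3 of 5 in oligodendrocyte-like (0.37) and 6 of 10 in endothelial-like cells (0.10). Without mouse 5, edgeR gave 7 of 10 in endothelial-like cells (median 0.34). Members with low counts, such as Nlrc5, Tap1 and Psmb9, passed the filter in some classes and not in others.

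**Figure D4:**
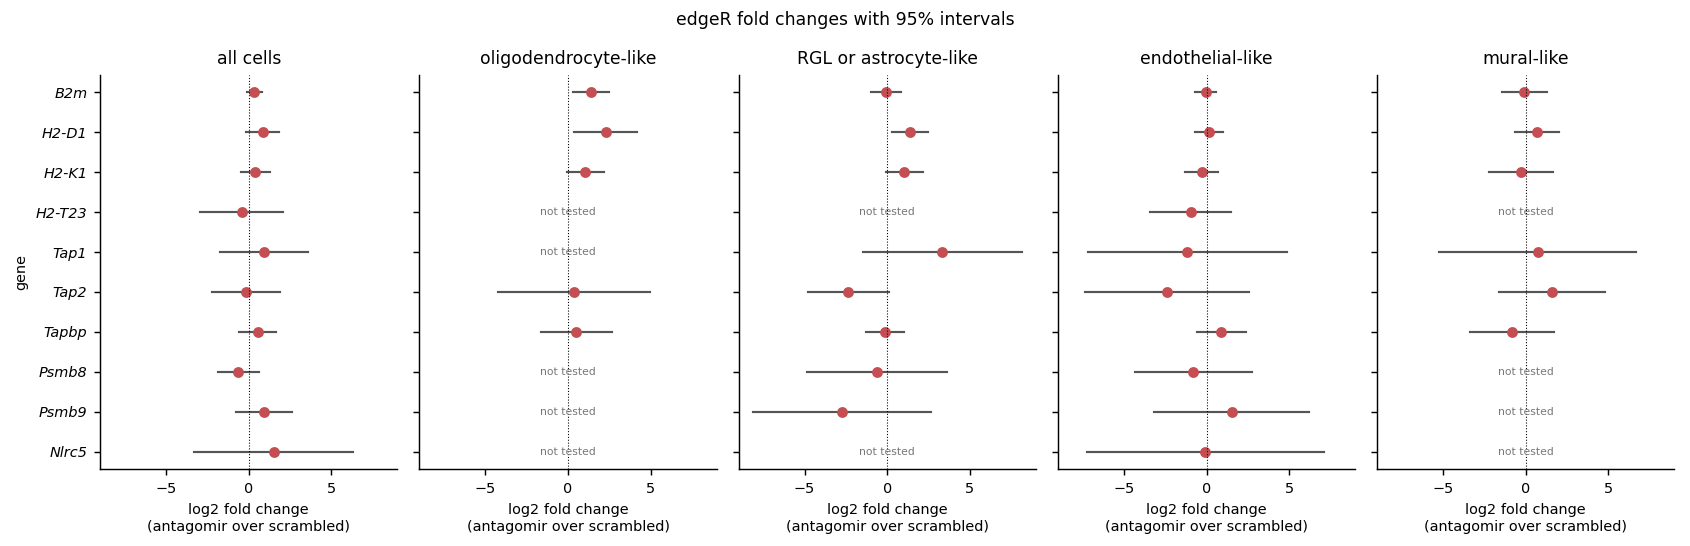
Log2 difference, antagomir minus scrambled, with its 95% interval from edgeR, for each fitted member in all cells and in 4 classes. The interval of H2-D1 is 0.36 to 4.18 in oligodendrocyte-like cells, where it is a description, and 0.27 to 2.49 in RGL or astrocyte-like cells, and it spans 0 in endothelial-like and mural-like cells.

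Whether a response differed between classes was tested by exact permutation of the treatment within the difference of 2 classes per mouse, in 21 comparisons of B2m, H2-D1, H2-K1 and Tapbp. None passed: the smallest exact p was 0.0571 (adjusted p = 0.6), for H2-K1 and Tapbp in mural-like against oligodendrocyte-like cells, where the smallest possible is 0.0286. After adjustment over the 21 comparisons, a lone comparison at that smallest p could not pass, and many would have had to reach it together. The test could therefore hardly pass, and it does not decide whether responses differ between classes. Nothing is read from its comparisons with oligodendrocyte-like cells, which prompted the set.

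The rest of the pathway was taken from 6 lists of textbook genes. In edgeR, 0 genes of any list passed in either direction in any of the 5 comparisons. Without adjustment, 3 fits of a list gene reached 0.05 in edgeR, each with an adjusted p of 1.00. They were Psmb10, an immunoproteasome subunit, and Rfxank, a subunit of RFX, in all cells (1 of 13 and 1 of 11 fitted in their lists, positive, beside 0.958% of all genes) and Jak1, a kinase of interferon receptors, in oligodendrocyte-like cells (1 of 9, negative). So few among all the fits of the lists are no result about them. Of 28 interferon response genes, 5 of 6 fitted were on the higher side in oligodendrocyte-like cells (median 0.53), 5 of 13 in RGL or astrocyte-like cells (median -0.52), 7 of 25 in endothelial-like cells (median -0.54) and 6 of 13 in mural-like cells (median -0.20). Of 13 further peptide supply and loading genes, 8 of 12 were on the higher side in oligodendrocyte-like cells (median 0.15), 2 of 13 in RGL or astrocyte-like (median -0.37), 8 of 12 in endothelial-like (median 0.20) and 5 of 10 in mural-like cells (median 0.09).

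The differences of the other lists also lay on both sides. Of 15 further class I heavy chains and class I-like genes, 4 of 5 fitted had a positive difference in endothelial-like, 1 of 3 in mural-like, 4 of 7 in RGL or astrocyte-like and 0 of 2 in oligodendrocyte-like cells. The medians of their log2 differences were 0.22, -1.41, 0.09 and -1.93 in that order of classes. Of 11 transcription factor genes of the class I promoters, 3 of 8 had a positive difference in endothelial-like, 3 of 5 in mural-like, 6 of 11 in RGL or astrocyte-like and 8 of 11 in oligodendrocyte-like cells. The medians of their log2 differences were -0.68, 0.30, 0.39 and 0.33 in that order of classes. Of 12 interferon receptor and signalling genes, 4 of 11 had a positive difference in endothelial-like, 6 of 8 in mural-like, 8 of 12 in RGL or astrocyte-like and 4 of 9 in oligodendrocyte-like cells. The medians of their log2 differences were -0.43, 0.73, 0.15 and -0.18 in that order of classes. None of the 7 class II genes had enough counts to be fitted, and the highest, H2-Ab1, averaged 15.2 CPM in mural-like cells.

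By level, the lists shared the vascular lean of the members only in part. In endothelial-like cells the highest genes of 5 of the lists were Fcgrt among the class I-like chains, the neonatal Fc receptor, whose chain also pairs with B2m (1066 ± 573 CPM), Ifitm3 of the interferon response (906 ± 175 CPM), Hspa5 of peptide supply and loading, Ifnar2 of the type I interferon receptor (366 ± 268 CPM) and, among the transcription factors, Rela of NF-kappaB (173 ± 133 CPM). The chaperone Hspa5, which serves many proteins beside class I, did not follow that order and averaged 441 ± 246 CPM in endothelial-like, 705 ± 294 in mural-like, 466.3 ± 189 in RGL or astrocyte-like and 587 ± 156 CPM in oligodendrocyte-like cells (SD, n = 8). In oligodendrocyte-like cells the interferon response genes present were Ifi27 (134 ± 39.2 CPM) and Xaf1 (114 ± 21.3 CPM), with Irgm1 the next at 9.3 CPM.

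Across 32 sums of a class in a mouse, the genes whose log2(CPM + 1) followed B2m most closely among 7476 genes were Gng5 (Pearson r 0.857), Sparc (0.849), Rhoc (0.842), Fam65a (0.840) and Epas1 (0.836). Those closest to H2-D1 were Pltp (0.860), Eng (0.853), Hspb1 (0.851), Tmem204 (0.850) and Uaca (0.848). Among the members, H2-K1 ranked 7 for B2m (0.829), H2-D1 12 (0.791), Tapbp 83 (0.690) and Tap1 818 (0.378). These correlations describe sums that share mice, libraries and classes.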

How the data were processed

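The authors deposited a table of unnormalized read counts by gene symbol for each well, and a table of wells by mouse, treatment, FACS and Project. The last 2 were read here as sort day and pool. Software named in the submitters' processing notes is FastQC, STAR 2.5.2, Subread, featureCounts 1.5.1 and Seurat 2.3.1, with build mm10, at an annotation release and strand setting not given in the sources used here. GEO lists 2 samples per treatment, which cannot be matched to the 8 mice, so the mouse was the replicate.

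Wells with under 500 (36) or over 6000 detected genes (16) were left out. The rest were clustered on logged values per 10000 counts with scanpy 1.11.5 in Python 3.11.15 (2000 variable genes, 20 principal components, 15 neighbours, Leiden resolution 1) without the 10 genes and the gene lists. Clusters were named from marker lists, and no doublet caller was run. The members, lists and markers were chosen with earlier results of these data known; all 10 members are named, and of each list the genes past the threshold or else those highest in CPM.

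Counts were summed per mouse and class. Treatments were compared with edgeR 4.0.16 in R 4.3.3 (filterByExpr, TMM, quasi-likelihood test, Benjamini-Hochberg over all genes tested), in mice with at least 5 cells of a class, which dropped mouse 7 from the endothelial-like fit. Alternatives used DESeq2 1.42.0 and limma 3.58.1. Classes were compared within mice with at least 3 cells of both, by sign flips in scipy 1.17.1; adjustment was planned over the members alone and was made over all genes of a pair instead. CPM and RPKM were computed from the counts, RPKM with exonic lengths of GENCODE M21. The code was tested on simulated data. The same 4 pairs of mice that share sort day and pool were compared in all cells and in each class fitted, which gave 19 correlations that are not independent. Deviations from the group means correlated at -0.01 to 0.15, so the pairs were not treated as paired. Precision is limited by 4 mice per treatment. Nothing says how far cells of 1 mouse vary by handling, so p-values measure the spread between these 8 mice.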

Additional observations from a re-analysis of the deposited data

Results flagged for a closer look

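In a search of 35 groups of 4 mice for a mouse far from the other 3, 2 groups stood out; chance alone marks about 1 group in 20. In oligodendrocyte-like cells of antagomir mice, H2-D1 was at 545 CPM in mouse 2, against 39.0, 61.1 and 93.6 CPM in the other 3. In oligodendrocyte-like cells of scrambled mice, H2-K1 was at 51.4 CPM in mouse 1, against 26.3, 29.1 and 29.5 CPM in the other 3.

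The wells left out also held the pathway. In the 16 wells with over 6000 detected genes, 10 of the 10 members had more than 3 counts, and B2m was found in 16 of 16 at 344 CPM overall. In the 36 wells with under 500 detected genes, 2 members had more than 3 counts, Tapbp with 22 and B2m with 5.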

How the results depend on the processing

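Between treatments, 0 members were called under each alternative run in all 5 comparisons. The log2 difference of B2m in oligodendrocyte-like cells, 1.38, was 2.33 within pool L5 and 0.35 within pool L6, and 0.74 to 1.72 with each mouse left out. That of H2-D1 was 0.72 to 2.62 in oligodendrocyte-like and 0.96 to 1.66 in RGL or astrocyte-like cells with each mouse left out, and that of H2-K1 in RGL or astrocyte-like cells 0.72 to 1.48. With the replicate block of sort day and pool, B2m and H2-D1 in oligodendrocyte-like cells were at 1.21 and 1.77, and 0 members were called. Of 865 values of a member under an alternative, 81 changed sign, and none of the 865 passed the threshold. The sign changes fell on 23 of the 39 differences of a member in a class or in all cells.

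Of the comparisons of a member between classes, 6 passed in the main analysis, 19 with the mean over cells of log2(CPM + 1), 1 with at least 5 cells per mouse, 1 with wells of 1000 to 6000 detected genes, 31 with edgeR (chosen after seeing the data) and 0 to 0 with each mouse left out. B2m in endothelial-like minus oligodendrocyte-like cells was 4.30 with at least 5 cells and 4.32 with 1000 to 6000 genes, on 7 mice and then short of the threshold, and 4.26 to 4.75 with each mouse left out. The lost calls follow from the smallest p that 7 mice allow. Depth limits the low members, and 4 mice per treatment limit the rest.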

Other observations

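In 12 fibroblast-like cells, which were too few to compare, B2m summed per mouse was 221, 1124, 1251 and 1031 CPM in antagomir mice 2, 4, 6 and 8 and 882, 875 and 426 CPM in scrambled mice 1, 3 and 7. H2-D1 there was 993, 302, 1285 and 416 CPM in the same antagomir mice and 1595, 0 and 208 CPM in the same scrambled mice. In 5 oligodendrocyte precursor-like cells, B2m was 345 CPM in antagomir mouse 2 and 202 CPM in scrambled mouse 1, and H2-D1 was 332 CPM and 243 CPM in those mice.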
